A study of Homo sapiens with 15 samples.

Results

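Collagen transcripts were examined in PE/CA-PJ41, an immortalised human oral squamous cell carcinoma line, with and without a cytoglobin transgene. Cytoglobin is a haem protein of the globin family. The collagens comprised 10 genes of fibril-forming, fibril-associated, anchoring-fibril and transmembrane kinds. They were COL1A1, COL1A2, COL3A1, COL5A1, COL5A2, COL7A1, COL12A1, COL13A1, COL16A1 and COL17A1. They were found on the array through the RefSeq accession attached to each probe. This gave 13 probes printed as 39 spots, of 42405 probes that were not controls, and 10 of the 19483 genes named in this way. COL5A1, COL12A1 and COL16A1 had 2 probes each, and every other gene had 1.

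NCE stands for non-cytoglobin expressing. The labels give these control cells the empty transfection vector, whereas the paper calls its control the parent line without transfection, so it is unsettled whether the control accounts for the vector and its selection. CYGB+ cells carried human cytoglobin cDNA in pCMV6-Neo, whose promoter is a constitutive viral one, and came from 1 stable G418-selected clone, so that the transgene and the clone cannot be told apart. Both kinds of cell spent 24 h in supplemented medium before RNA was taken, on 3 occasions per group. No source used here says that these preparations came from separate cultures, so p-values measure the spread between preparations. There were 9 NCE arrays, with each of the 3 biological replicates run on 3 arrays, and 6 CYGB+ arrays, with each of the 3 run on 2. The labels give every sample the Cy3 dye, so the green channel was read. The study's methods give Cy5 to the control RNA, which the labels do not.

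Collagens are triple-helical proteins of the extracellular matrix. Type I, III and V collagens assemble into fibrils, and type XII and XVI collagens belong to the class that lies on or beside fibrils. Type XIII and XVII collagens span the cell membrane, and type VII collagen forms the anchoring fibrils that fasten the basement membrane to the tissue below it. In oral mucosa and skin, fibroblasts are the main makers of the fibril-forming chains, whereas keratinocytes make type VII and XVII collagen.

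The cells carried the markers of their labelled type. All 7 squamous epithelial markers, among them KRT5, KRT14, TP63 and CDH1, were well above background on all 15 arrays. Of 7 fibroblast markers, PDGFRB, THY1 and LUM were above background on no array, and only FAP and VIM were above it on all 15. Of 3 endothelial and 3 leukocyte markers, CD14 alone was above it on all 15. FAP was higher in CYGB+ (log2 signal 9.62 in NCE and 10.17 in CYGB+, adjusted p = 0.0429, and 0.0812 with a slide term), and VIM was lower (12.51 and 11.54, adjusted p = 0.0345, and 0.402 with a slide term). Of the squamous markers KRT6A alone passed, lower in CYGB+ (13.80 and 13.29, adjusted p = 0.0266), with a change of −0.002 with a slide term. The part of other cell types in the collagen results was not tested. The probe for CYGB itself read 11.99 ± 0.15 in NCE and 11.92 ± 0.53 in CYGB+ (SD, n = 3) and was above background on all 15 arrays (difference −0.07, adjusted p = 0.877). A signal this bright in NCE is at odds with the name non-cytoglobin expressing, and the reason was not tested. It is not known here whether this probe reads the transgene's cDNA, so it does not show which arrays carry the transgene. Every direction below rests on the arrays labelled NCE and CYGB+ being what their labels say.

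The arrays lay on 2 slides. The first slide held 8 NCE arrays, and the second held the ninth NCE array, of replicate 1, with all 6 CYGB+ arrays. Slide and group therefore nearly coincided, and local background in green was 24 to 29 on the first slide and 37 to 43 on the second. Between 48% and 57.2% of probes were well above background on an array. The first array of CYGB+ replicate 1 stood apart from the rest of the arrays (median Spearman correlation 0.903, against 0.955 to 0.975), and results are given without it where it matters.

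Among all 22016 probes tested, 2425 differed between the groups at an adjusted p under 0.05 (11.0%), with 5.38% higher and 5.63% lower in CYGB+. Of the 13 collagen probes, 12 probes of 9 genes were tested, and 5 of them differed. None had entered the test through 1 group alone, and 10 were above background on all 15 arrays. By gene, 2 of the 9 rose, COL12A1 (both probes) and COL5A2, where 7.16% of all tested genes had a probe called higher. A further 2 fell, COL1A2 and COL13A1, where 7.58% had a probe called lower. COL1A1, COL5A1, COL7A1, COL16A1 and COL17A1 were tested and did not pass, and COL3A1 was not well above background on any array. The median absolute log2 change was 0.48 over the tested collagen probes and 0.18 over all probes tested. In 7 of the 12 probes the 3 replicate values of each group did not overlap, which was so for 33.9% of all probes tested. In these bulk samples, fewer cells making a transcript and less of it per cell cannot be told apart.

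**Figure D1:**
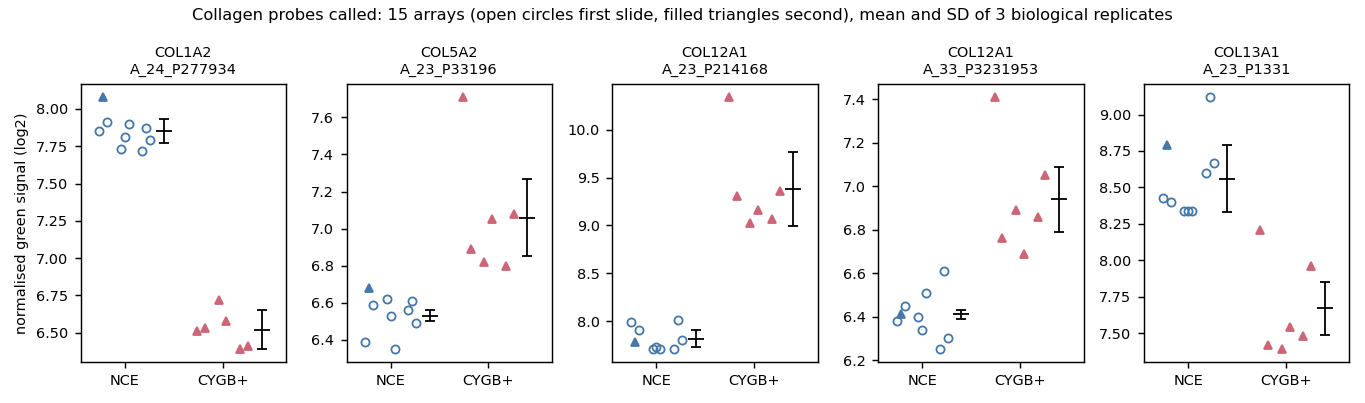
Normalised green signal (log2) of the 5 collagen probes that differed between NCE and CYGB+, 1 panel per probe. Each point is 1 array, open on the first slide and filled on the second, in order of biological replicate from left to right, and bars give the mean and SD of 3 biological replicates. In all 5 panels the 6 CYGB+ arrays lie outside the range of the 9 NCE arrays, with the highest COL12A1 and COL5A2 points coming from the first array of CYGB+ replicate 1. The share of all probes whose arrays separate in this way was not counted. The panels were picked by their calls and the arrays repeat 3 preparations per group, so the separation adds no support.

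The chains of type I collagen were first compared. COL1A2, which encodes the α2(I) chain, was down-regulated. Its single probe, averaged over 10 spots, had a normalised log2 signal of 7.94, 7.81 and 7.79 in the NCE replicates and 6.52, 6.65 and 6.40 in the CYGB+ replicates. All CYGB+ values were below all NCE values, and the 6 CYGB+ arrays (6.39 to 6.72) did not reach the 9 NCE arrays (7.72 to 8.08). The mean fell from 7.85 ± 0.08 to 6.52 ± 0.13 (SD, n = 3), a log2 change of −1.33 (SE 0.10) or 2.51-fold lower, with an adjusted p of 0.00323. On the second slide alone, where NCE is represented by 1 array, the log2 change was −1.55 (adjusted p = 0.162), and with a slide term in the fit it was −1.53 (adjusted p = 1.31e-05). In CYGB+ the COL1A2 probe was well above background on all 6 arrays, but its mean was near that of COL1A1 (6.57), which was close to the detection limit. The size of the COL1A2 change depended on the background treatment. It was −2.54 and −2.59 with the scanner software's processed signal (quantile and 75th percentile scaling) and −1.71 without background correction, with the call kept (adjusted p = 0.00211, 0.00287 and 0.00152).

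COL1A1, which encodes the α1(I) chain, was close to the detection limit. Its replicates read 6.71, 6.29 and 6.41 in NCE and 6.78, 6.46 and 6.46 in CYGB+, and it was well above background on 7 of 9 NCE arrays and all 6 CYGB+ arrays. The groups overlapped, and the log2 change was 0.10 with a 95% interval from −0.24 to 0.44 (adjusted p = 0.708). Its sign turned with a slide term (−0.13) and without CYGB+ replicate 1 (−0.008). The change of COL1A2 was below that of COL1A1 by 1.42 on the log2 scale, with both probes dim in CYGB+. Within a replicate, the log2 signal of COL1A2 minus that of COL1A1, used here only to set the changes against each other, was 1.24, 1.52 and 1.39 in NCE and −0.26, 0.19 and −0.06 in CYGB+, so the groups did not overlap. An exact two-sided permutation test gave p = 0.1, the smallest that 20 splits of 3 against 3 allow, and 0.167 after adjustment over 5 such pairs.

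COL3A1, the chain of type III collagen, which is found with type I in distensible tissues, gave no measurable signal. Its probe read 5.87 to 5.97 on the NCE arrays and 5.84 to 5.94 on the CYGB+ arrays, and none of the 15 was well above background. No change can be given for it. COL3A1 and COL5A2 are neighbouring protein-coding genes in the RefSeq annotation, and COL5A2 was detected on all 15 arrays.

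Type V collagen, a minor fibril component known to limit fibril diameter, was read by 3 probes of the 10 genes. COL5A3, a further type V chain outside the 10 genes, was above background on 1 of 9 NCE arrays and 0 of 6 CYGB+ arrays. It was not tested. COL5A2, the α2(V) chain, was up-regulated 1.44-fold. Its replicates read 6.55, 6.50 and 6.55 in NCE and 7.30, 6.94 and 6.94 in CYGB+, so the highest value was that of CYGB+ replicate 1. The mean log2 change was 0.53 (SE 0.12, adjusted p = 0.0361), and 1.14 with the processed signal under quantile scaling (adjusted p = 0.0203). Without the first array of replicate 1, which alone read 7.71, it was 0.39 (adjusted p = 0.0114). The call was lost with a slide term (0.37, adjusted p = 0.615) and when any NCE replicate, CYGB+ replicate 2 or CYGB+ replicate 3 was left out (0.507 to 0.587, adjusted p = 0.0506 to 0.136). COL5A2 passed under 9 of 19 alternative settings, and COL1A2 under 18 of 19.

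COL5A1, the α1(V) chain, had 2 probes and neither passed. The brighter one (A_33_P3629678) read 9.31, 9.07 and 9.26 in NCE and 10.03, 9.84 and 9.32 in CYGB+. Every CYGB+ replicate was above every NCE replicate, but replicate 3 by only a small margin, and the log2 change of 0.52 (SE 0.19) had an adjusted p of 0.124. Leaving out CYGB+ replicate 3 raised it to 0.72 (adjusted p = 0.0356). With a slide term it was 0.17 (adjusted p = 0.894), and the NCE replicate 1 RNA read 0.38 higher on the second slide than on the first. The dimmer probe (A_23_P83818) changed by 0.22 (adjusted p = 0.384), and its groups overlapped. The changes of the 2 probes differed by 0.29 (exact two-sided permutation p = 0.3, adjusted p = 0.375), and those of COL5A2 and the brighter COL5A1 probe by 0.009 (p = 1 in the same exact test). The smallest p these tests allow is 0.1, so neither could pass and no likeness is shown by them.

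COL12A1 changed most among the collagens at the main setting, though less than COL1A2 with the processed signal. It encodes the single chain of type XII collagen, which binds the surface of type I fibrils. Its promoter is shown because it belongs to the collagen gene with the largest rise at the main setting. The 250 bases before the RefSeq start (GRCh38.p14, chr6:75206054-75206303, minus strand, 61.2% G or C) read as follows, with a match to the GC box GGGCGG, here on the opposite strand, in capitals.
COL12A1: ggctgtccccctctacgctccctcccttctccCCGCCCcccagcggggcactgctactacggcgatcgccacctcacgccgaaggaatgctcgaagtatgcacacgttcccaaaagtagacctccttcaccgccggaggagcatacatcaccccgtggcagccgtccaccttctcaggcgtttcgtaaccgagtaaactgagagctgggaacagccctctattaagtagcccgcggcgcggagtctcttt
The match lies 218 to 213 bases before the start. The motif was searched on both strands and 42.3% of 27305 promoters of this length hold it, so its presence is common. No TATAAA was found in this window.

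The brighter COL12A1 probe (A_23_P214168) read 7.89, 7.72 and 7.84 in the NCE replicates and 9.83, 9.10 and 9.22 in the CYGB+ replicates. The 6 CYGB+ arrays ran from 9.03 to 10.34 and the 9 NCE arrays from 7.71 to 8.01, with no overlap. The mean rose from 7.82 ± 0.09 to 9.38 ± 0.39 (SD, n = 3), a log2 change of 1.56 (SE 0.19) or 2.95-fold (95% interval 2.17 to 4.02), with an adjusted p of 0.00652. The high value of CYGB+ replicate 1 came from its first array. Without that array the log2 change was 1.39 (adjusted p = 0.000589), with a slide term 1.64 (adjusted p = 0.0132), and on the second slide alone 1.60 (adjusted p = 0.237, with 1 NCE array).

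The dimmer COL12A1 probe (A_33_P3231953) moved the same way by less. It read 6.41, 6.42 and 6.39 in NCE and 7.09, 6.79 and 6.96 in CYGB+, a log2 change of 0.54 (SE 0.10) or 1.45-fold (adjusted p = 0.0218). Only 7 of 9 NCE arrays were well above background at this probe. Its adjusted p was 0.241 with a slide term and 0.0939 without NCE replicate 3. The 2 probes differed in their change by 1.03 on the log2 scale, with no overlap of the replicates (exact two-sided permutation p = 0.1, the smallest possible, adjusted p = 0.167). The gap depended on the background treatment. With the processed signal under quantile scaling the changes were 2.00 at the brighter probe (adjusted p = 0.00509) and 1.63 at the dimmer one (adjusted p = 0.00321).

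COL16A1, the chain of type XVI collagen, a relative of type XII, was read by 2 probes, neither of which passed. Its brighter probe (A_23_P160318) read 10.26, 10.37 and 10.72 in NCE and 9.93, 10.02 and 10.06 in CYGB+. The 6 CYGB+ arrays (9.88 to 10.13) lay below the 9 NCE arrays (10.22 to 10.76), yet the log2 change of −0.45 (SE 0.13) had an adjusted p of 0.0778. Without the first array of CYGB+ replicate 1 it passed narrowly (−0.43, adjusted p = 0.0497). With a slide term the change shrank to −0.28 (adjusted p = 0.545), and on the second slide alone to −0.22. The dimmer probe (A_33_P3210647) showed no difference beyond its error, with a log2 change of −0.009 and a 95% interval from −0.36 to 0.34 (adjusted p = 0.977). At that probe the second-slide array of NCE replicate 1 read 0.69 lower than the same RNA on the first slide. The changes of the 2 probes differed by −0.44 without overlap (exact two-sided permutation p = 0.1, the smallest possible, adjusted p = 0.167).

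COL13A1, the chain of type XIII collagen, a transmembrane protein found at sites of cell adhesion, was down-regulated. Its promoter is shown as that of the lower gene whose promoter was available. It is 64.0% G or C (GRCh38.p14, chr10:69801656-69801905, plus strand, 250 bases), and capitals mark a match to the TATA box TATAAA.
COL13A1: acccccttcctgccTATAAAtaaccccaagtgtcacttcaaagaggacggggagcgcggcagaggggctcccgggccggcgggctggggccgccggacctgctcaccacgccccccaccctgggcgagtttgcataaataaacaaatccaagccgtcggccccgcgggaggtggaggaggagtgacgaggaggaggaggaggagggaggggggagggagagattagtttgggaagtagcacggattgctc
The match lies 236 to 231 bases before the RefSeq start. Of all 27305 promoters, 11.1% hold TATAAA on either strand, and among the 6 collagen promoters examined COL7A1 and COL17A1 hold it as well. Those of COL5A1, COL7A1, COL12A1 and COL16A1 hold the GC box. The CCAAT box, TGANTCA (AP-1), GTCTAGAC and CAGAC (SMAD) and CACGTG (E-box) were also searched on both strands, and none matched in the COL12A1 or COL13A1 window (33%, 6.6%, 0.176%, 37.8% and 6.49% of all promoters hold them, in that order). A match is a description of these letters and not of what binds there.

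The COL13A1 probe, averaged over 10 spots, read 8.54, 8.34 and 8.80 in NCE and 7.82, 7.46 and 7.72 in CYGB+. The highest CYGB+ array (8.21) was below the lowest NCE array (8.34). The mean fell from 8.56 ± 0.23 to 7.67 ± 0.18 (SD, n = 3), a log2 change of −0.89 (SE 0.15) or 1.85-fold lower (adjusted p = 0.0145). It was −1.16 with a slide term (adjusted p = 0.0484) and −1.13 on the second slide alone (adjusted p = 0.231). Leaving out NCE replicate 3, the highest, gave −0.77 with an adjusted p of 0.0563.

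COL17A1, the transmembrane collagen of hemidesmosomes, showed no difference beyond its error. Its replicates read 11.64, 12.10 and 11.64 in NCE and 11.53, 11.69 and 12.07 in CYGB+. The groups overlapped throughout, and the log2 change was −0.03 with a 95% interval from −0.46 to 0.40 (adjusted p = 0.935). COL7A1, the chain of anchoring fibrils, read 9.26, 8.73 and 9.41 in NCE and 9.06, 9.57 and 9.33 in CYGB+. Its log2 change was 0.19 with a 95% interval from −0.30 to 0.67 (adjusted p = 0.605). These intervals still allow changes of up to about 0.67 on the log2 scale, so equality was not shown for either gene.

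**Figure D2:**
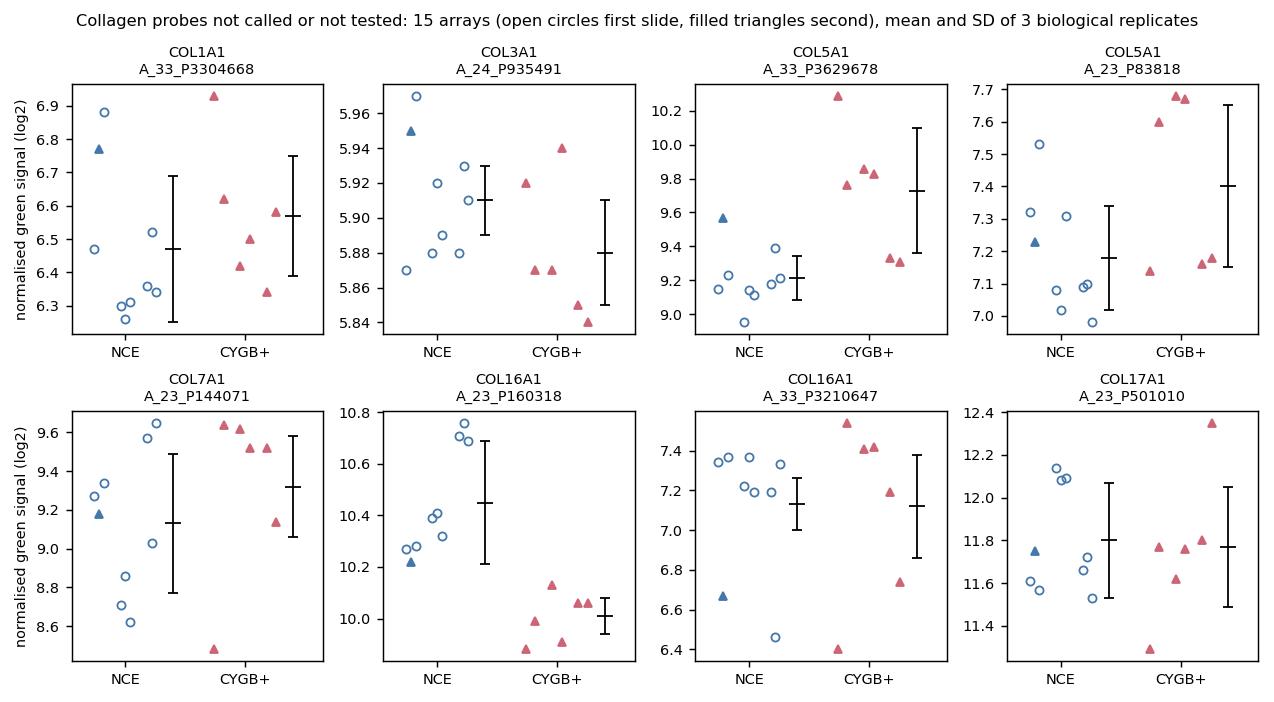
Normalised green signal (log2) of the 8 collagen probes that did not pass or were not tested, 1 panel per probe, each with its own scale. Points are arrays as before (open on the first slide, filled on the second) and bars are the mean and SD of 3 biological replicates. The groups overlap in 7 panels, and in that of COL16A1 A_23_P160318 all CYGB+ arrays lie below all NCE arrays. COL3A1 spans only 5.84 to 5.97.

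The direction of each call held when slide was treated in other ways. In the fit over single arrays with a slide term, COL1A2, COL13A1 and the brighter COL12A1 probe passed, and COL5A2 and the dimmer COL12A1 probe did not. Over all probes, that fit called 318 higher and 441 lower. On the second slide alone the 5 probes kept their directions, but with a single NCE array none passed.

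**Figure D3:**
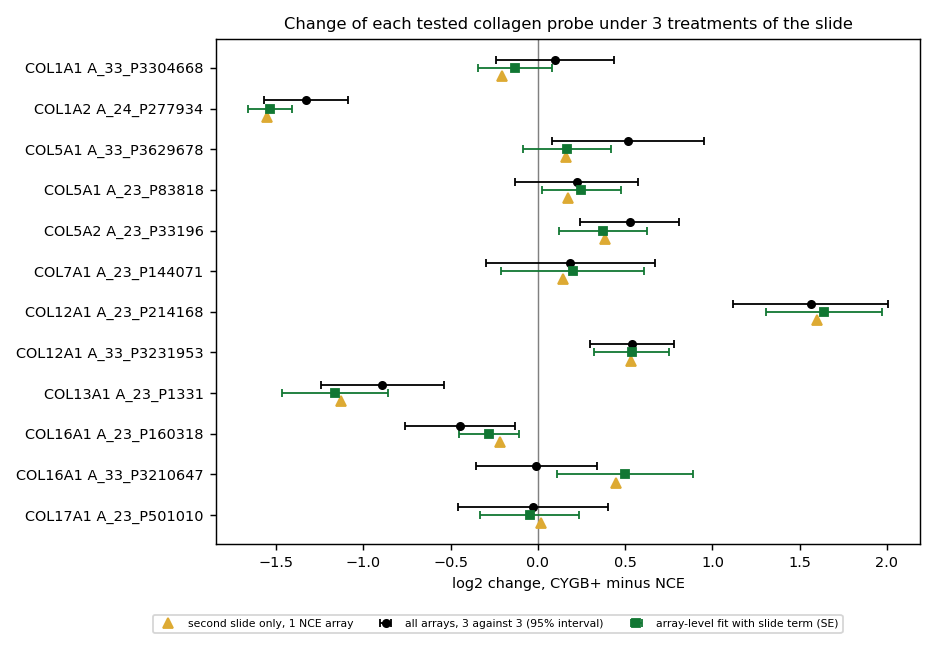
Log2 change (CYGB+ minus NCE) of the 12 tested collagen probes. Black circles with 95% intervals are the comparison of 3 with 3 biological replicates, green squares with SE the fit over arrays with a slide term, and gold triangles the second slide alone with 1 NCE array. COL1A2, COL13A1 and COL12A1 A_23_P214168 stay far from 0 in all 3, while COL5A1 A_33_P3629678 moves from 0.52 to 0.17 and COL16A1 A_33_P3210647 from −0.009 to 0.50 with the slide term.

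Genes that surround these collagens in their biology were then counted in 8 lists, each gene by its brightest probe. Of 95 genes, 61 were tested, and 4 rose (6.56%) and 5 fell (8.2%), against 6.28% and 7.01% of all 12814 genes tested by brightest probe. These shares are near the background. PCOLCE2, among the genes that rose, entered the test through CYGB+ alone. With replicate number as a block, 6 of the list genes rose and 8 fell, and without the first array of CYGB+ replicate 1 the counts were 5 and 10. Calls over all probes grew as well, from 1185 higher and 1240 lower to 1409 and 1534 with the block. Without that array they were 2004 and 2162. The share of all genes by brightest probe is not given here for these settings, so nothing particular to the lists is read from their counts.

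Among other collagens most were undetected or did not pass. Of 6 further fibril-forming genes 2 were tested and neither passed, with COL27A1 at 7.91 in NCE and 8.15 in CYGB+ (adjusted p = 0.266) and COL11A2 at 7.11 and 7.54 (adjusted p = 0.282). COL2A1, COL11A1 and COL24A1 were above background on no array. Of 10 further collagens of the fibril-associated and transmembrane kinds 4 were tested and none passed, with COL9A3 at 9.20 in NCE and 8.77 in CYGB+ (adjusted p = 0.102) and COL9A2 at 6.36 and 6.67 (0.32 on the log2 scale, adjusted p = 0.0707). COL9A2, a dim probe, passed with the processed signal under quantile scaling (1.27, adjusted p = 0.0091). Among 5 tested network, beaded-filament and multiplexin collagens, 2 fell. COL18A1, a basement membrane collagen whose C-terminal fragment is endostatin, fell from 10.37 ± 0.33 to 9.32 ± 0.05 (2.08-fold lower, adjusted p = 0.0113, and 0.0539 without NCE replicate 3). COL6A1, a chain of beaded filaments, fell from 8.93 ± 0.31 to 8.10 ± 0.32 (1.78-fold lower, adjusted p = 0.0459), a call lost without any 1 of the 6 replicates. Both passed with a slide term, COL18A1 at a log2 change of −1.595 (adjusted p = 0.00659) and COL6A1 at −1.249 (adjusted p = 0.0113).

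Of 17 tested genes listed for collagen hydroxylation, glycosylation and folding in the endoplasmic reticulum, 1 rose and 1 fell. P4HA1, a catalytic subunit of prolyl 4-hydroxylase, which stabilises the triple helix, fell from 9.95 ± 0.03 to 8.87 ± 0.11 (2.11-fold lower, adjusted p = 0.00353), although with a slide term the adjusted p was 0.0695. P3H2, a prolyl 3-hydroxylase, rose from 11.99 ± 0.18 to 12.77 ± 0.23 (1.72-fold, adjusted p = 0.0226). Its call was lost without NCE replicate 1, 2 or 3 or CYGB+ replicate 3 (adjusted p = 0.0643, 0.0577, 0.0863 and 0.0519). With a slide term P3H2 passed, at a log2 change of 1.088 (adjusted p = 0.00325). The collagen chaperone SERPINH1, at 13.02 and 13.05, did not pass (adjusted p = 0.903).

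Of 12 tested genes of procollagen secretion, propeptide removal and cross-linking, 1 rose and 1 fell. PCOLCE2, an enhancer of C-propeptide removal, rose from 6.13 ± 0.06 to 6.80 ± 0.15 (1.59-fold, adjusted p = 0.0123) and was above background on 1 of 9 NCE and 6 of 6 CYGB+ arrays. It therefore entered the test through CYGB+ alone, the group where it was higher, so its call does not stand as support for a rise. Its log2 change was 0.67, against 0.765 with a slide term (adjusted p = 0.0416) and 2.82 with the processed signal under quantile scaling. Its call was lost without NCE replicate 2 or 3 (adjusted p = 0.0661 and 0.0539). SEC23A, a coat protein of the vesicles that leave the endoplasmic reticulum, fell from 10.80 ± 0.05 to 10.31 ± 0.14 (1.41-fold lower, adjusted p = 0.0273), and lost its call with a slide term (adjusted p = 0.157) and without any replicate except CYGB+ replicate 1 (0.0626 to 0.113). The tested lysyl oxidases, which cross-link fibrils, did not pass, and LOXL4 was not tested. LOXL2 for example read 10.57 in NCE and 10.07 in CYGB+ (adjusted p = 0.14). LOXL3 went the other way, at 8.70 and 9.07 (adjusted p = 0.0736).

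SPARC, a matricellular protein that binds fibrillar collagen, changed most in the lists at the main setting, though less than PCOLCE2 with the processed signal. It rose from 8.85 ± 0.16 to 10.49 ± 0.13 (3.12-fold, adjusted p = 0.00275), and by 1.33 on the log2 scale with a slide term (adjusted p = 0.0061). It was 1 of 4 tested fibril-associated proteoglycans and regulators, and the proteoglycan genes LUM, BGN and FMOD were above background on no array. Of 6 tested collagen receptors 1 rose, MRC2, an endocytic receptor for collagen, from 10.01 ± 0.07 to 10.67 ± 0.22 (1.58-fold, adjusted p = 0.0229, and 0.0556 with a slide term). The MRC2 call was lost without NCE replicate 1, 2 or 3 or CYGB+ replicate 2 (adjusted p = 0.0568 to 0.0946).

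Of the 11 hemidesmosome and anchoring partners of COL17A1 and COL7A1, all were tested and 1 fell. ITGB4, the integrin β4 subunit that binds COL17A1, fell from 13.14 ± 0.04 to 12.44 ± 0.29 (1.62-fold lower, adjusted p = 0.0302). With a slide term its log2 change was −0.24 (adjusted p = 0.899), and the call was lost without NCE replicate 1, 2 or 3 or CYGB+ replicate 3 (adjusted p = 0.0711 to 0.117). Its partner ITGA6 read 12.58 in NCE and 11.99 in CYGB+ (adjusted p = 0.107, and 0.664 with a slide term). LAMA3, a chain of laminin-332, read 13.95 and 13.37 (adjusted p = 0.102, and 0.698 with a slide term). LAMB3, also a chain of laminin-332, went the other way, at 15.59 and 15.79 (adjusted p = 0.309). CD151 did not pass at the main setting (14.88 and 14.56, adjusted p = 0.124). With a slide term CD151 passed, at a log2 change of −0.85 (adjusted p = 0.0128).

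**Figure D4:**
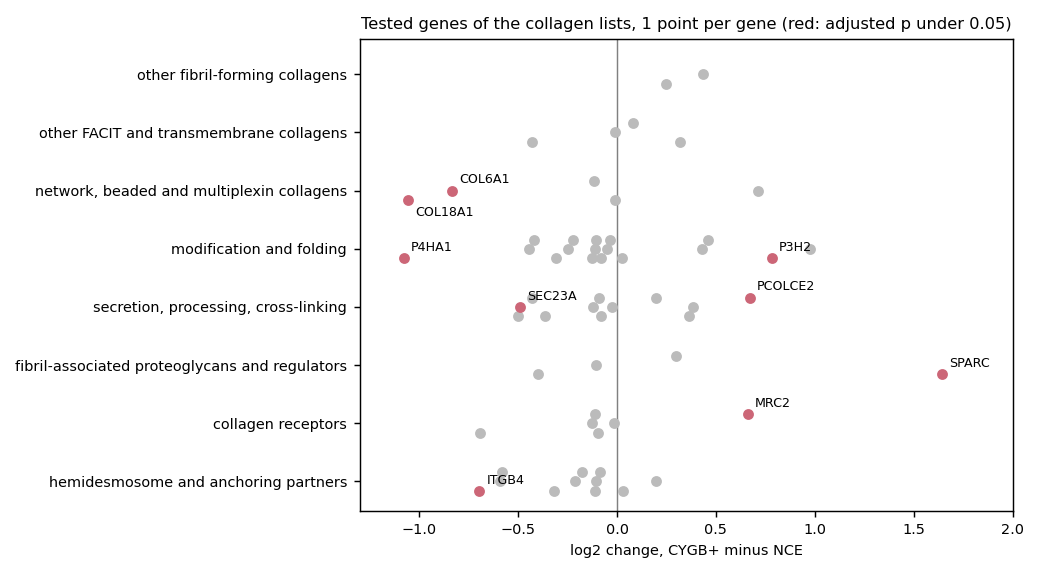
Log2 change (CYGB+ minus NCE) of the 61 tested genes in 8 lists of collagen biology, 1 point per gene, spread vertically within a list for legibility. Red points with names passed at an adjusted p under 0.05. At this main setting the 9 named genes include SPARC at 1.64 and P4HA1 at −1.08, and they are spread over 6 of the lists with both directions present.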

How the data were processed

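RNA from 3 NCE and 3 CYGB+ preparations had been hybridised to 15 Agilent SurePrint G3 human arrays. Per the file headers, the authors' scanner images were extracted with Feature Extraction 10.7.3.1 under a two-colour protocol with array annotation on hg19, and the deposited files hold the median intensity of each spot and of its local background. The deposited 0 or 1 flags of other kinds (above background, outlier) were used as filters. The authors' value table holds log2 values of 15040 probes, centred in a way not stated, in which 65.5% of probes have a CYGB+ median within 0.001 of 0; its direction follows the scanner values (correlation 0.91 to 0.958), and it was used as an alternative.

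Green intensities were corrected with normexp (offset 50), quantile normalised, and averaged over spots and then over arrays of 1 preparation. A mean-signal column had been planned; the files hold medians, which were used. Outlier spots (0.92%) were left out. Probes well above background on at least 6 of 9 NCE or 4 of 6 CYGB+ arrays (22016) were tested with limma 3.58.1 in R 4.3.3, with Benjamini-Hochberg adjustment over all of them. A fold change includes the offset and understates that of dim probes. The number of preparations, 3 per group, limits the precision. The fit was tested on simulated data with independent noise and no slide effect, so that test does not bear on the slide. The main fit and the permutation tests were unpaired. Deviations of same-numbered preparations correlated at 0.209, 0.23 and 0.304 and those of differently numbered ones at −0.5 to 0.29, and the number was used as a block in an alternative fit.

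All 10 genes were named, with at most 4 genes of each list (those called, by size of change, or otherwise the 2 with the highest signal) and CYGB. SERPINH1, LOXL2, LOXL3, LOXL4, ITGA6, LAMA3, LAMB3, CD151, COL2A1, COL5A3, COL11A1, COL24A1, LUM, BGN and FMOD were named after their values were seen. The members and lists were chosen with earlier results of these data known. Of 42405 probes, 27310 carry a RefSeq accession and 25422 were named through the RefSeq table of GRCh38.p14, which also gave the promoters of 6 of the 10 genes. Alternatives covered scaling, background, filters, slide, array repeats, test and left-out preparations.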

Additional observations from a re-analysis of the deposited data

Results flagged for a closer look

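In CYGB+ replicate 1 the first array read far from the other 5 CYGB+ arrays at 2 collagen probes. At COL12A1 (A_23_P214168) it read 10.34 on the log2 scale, with the nearest array at 9.36 and the lowest at 9.03, so that 0.753 of the range lay in this gap. At COL5A2 it read 7.71, with the nearest at 7.08 and the lowest at 6.80 (0.697 of the range). These were 2 of 24 probe and group combinations examined. Both came from the same array, so they are not independent, and how often chance gives such a gap was not tested. The array had the lowest median correlation with the others over all probes (0.903), and both genes passed without it.

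The red channel, which the labels give to no sample, carried signal at the collagens. Of the 13 collagen probes 11 were well above background in red on all 15 arrays.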

How the results depend on the processing

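The 75th percentile scaling called 755 probes higher and 727 lower over all probes and 1 collagen probe higher, with COL5A2 at 0.521 (adjusted p = 0.0839) and the dimmer COL12A1 probe at 0.545 (adjusted p = 0.0541). The scanner software's processed signal at the 75th percentile called 776 probes lower. With that signal, 2 list genes were lower under either scaling. The authors' value table called 764 probes higher and 680 lower, 1 list gene lower, and 0 collagen probes higher and 0 lower, since none of the 5 called probes is in it.

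The fit over arrays with a slide term called 318 probes higher and 441 lower, 1 collagen probe higher and 3 list genes lower. It gave COL1A1 −0.132, COL5A2 0.374, the dimmer COL12A1 probe 0.536 (adjusted p = 0.241) and the dimmer COL16A1 probe 0.50. The slide that holds both groups, with its single NCE array, called 3 probes higher and 2 lower, 0 collagen probes in either direction, and 0 list genes higher and 0 lower. It gave COL1A1 −0.208, COL1A2 −1.552, COL5A2 0.383, COL12A1 1.60 and 0.533, COL13A1 −1.126, the dimmer COL16A1 probe 0.446 and COL17A1 0.017. The fit over arrays with a random block and no slide term called 2377 probes higher and 2443 lower, 10 list genes higher and 14 lower, and passed COL5A1 A_33_P3629678 (0.516, adjusted p = 0.0183) and COL16A1 A_23_P160318 (−0.445, adjusted p = 0.00311).

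The methods' t-test called 345 probes higher and 321 lower at their threshold after Benjamini-Hochberg adjustment, 0 collagen probes higher and 1 lower, and 1 list gene higher and 1 lower, with COL5A2 at 0.525 (adjusted p = 0.108), COL12A1 at 1.562 (adjusted p = 0.0574) and 0.537 (adjusted p = 0.0642), and COL13A1 at −0.891 (adjusted p = 0.0825). Without a filter on dim probes 3 list genes were lower and COL5A2 (0.525) had an adjusted p of 0.0554. With the replicate block 8 list genes were lower and 1409 probes were higher and 1534 lower over all probes, and it changed no collagen call. Without the first array of CYGB+ replicate 1, an alternative chosen after seeing the data, 2004 probes were higher, 2162 lower and 10 list genes lower, with COL16A1 at −0.427 (passed) and 0.180 and COL17A1 at 0.049.

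Leaving out 1 replicate at a time gave 224 to 1218 probes higher and 268 to 1191 lower, 1 to 3 collagen probes higher and 1 to 2 lower, and 1 to 4 list genes higher and 1 to 5 lower. The lowest counts over all probes came without NCE replicate 2 (224 higher) and without NCE replicate 3 (268 lower). The log2 changes ran from −0.008 to 0.218 for COL1A1, −1.391 to −1.266 for COL1A2, 0.366 to 0.722 for COL5A1 A_33_P3629678, 0.404 to 0.587 for COL5A2, −0.019 to 0.325 for COL7A1, 1.339 to 1.704 and 0.466 to 0.614 for the COL12A1 probes, −1.001 to −0.772 for COL13A1, −0.158 to 0.065 for COL16A1 A_33_P3210647 and −0.184 to 0.124 for COL17A1. COL17A1 also turned sign under 75th percentile scaling (0.028), the processed signal (0.030 and 0.155) and the value table (0.067), and COL16A1 A_33_P3210647 without background correction (0.023). CYGB turned sign with the processed signal at the 75th percentile (0.081), the value table (0.032), without NCE replicate 2 (0.008) and without CYGB+ replicate 1 (0.201), with a range of −0.329 to 0.201 when 1 replicate was left out. The cause of these shifts was not tested.

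COL3A1 lay at background, and COL1A1 and the dimmer COL12A1 probe were well above it on 7 of 9 NCE arrays. COL1A2 kept its direction under all 19 alternatives tried and passed under 18, and the brighter COL12A1 probe kept its direction under 19 and passed under 17.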

Other observations

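At some collagen probes, of which COL12A1 and COL1A2 were chosen after their values were seen, the red signal of NCE array repeat 1 lay apart from that of repeats 2 and 3, whereas at others, such as COL3A1 and COL16A1 A_33_P3210647, the ranges overlapped. At COL12A1 (A_23_P214168) the red log2 signal was 10.57 to 10.77 on array repeat 1 of the 3 NCE replicates, 8.88 to 9.26 on array repeat 2 and 8.90 to 9.06 on array repeat 3. On the CYGB+ arrays it was 10.54 to 11.74 on array repeat 1 and 10.42 to 10.92 on array repeat 2. At COL1A2 the order was the opposite, with 7.24 to 7.50 on NCE array repeat 1, 9.04 to 9.55 on array repeat 2 and 9.60 to 10.51 on array repeat 3. The CYGB+ arrays read 7.10 to 7.36 and 7.33 to 8.00 at COL1A2. The red RNA of each array is not given by the labels, and no comparison was made with these values.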
